A study of Mus musculus with 8 samples.

Results

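Iron handling genes were examined in eyecups of Bbs8 knockout mice at postnatal day 11 (P11). The set comprised 10 genes chosen by symbol out of the 31053 gene identifiers counted in each library. It held the iron carrier Trf, the uptake genes Tfrc and Slc11a2, the ferritin chains Fth1 and Ftl1, the exporter Slc40a1, the ferroxidases Cp and Heph, the heme oxygenase Hmox1 and the iron sensor Ireb2. The set was drawn up with differences between these same libraries known, Trf being one of them. Its fold changes are therefore given as a description, without a test, and the false discovery rates (FDR) of the fit over all genes are printed to place each gene in that fit. RNA was taken from retinal pigment epithelium (RPE) eyecups and sequenced with the QuantSeq 3′ mRNA method, in which each read comes from near the 3′ end of a polyadenylated message.

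By the labels the groups were 4 Bbs8-/- mice and 4 wild-type littermates (Bbs8+/+), all C57/Bl6, untreated and at day 11. Bbs8, annotated as Ttc8, encodes a subunit of the BBSome, a complex that carries cargo in cilia. The knockout is not restricted to the RPE, so every tissue of the animal lacks the gene. An eyecup also holds choroid and sclera in addition to the RPE, so the libraries are mixtures. The RPE lies between the choroidal blood supply and the photoreceptors. Transferrin carries ferric iron in body fluids, and the transferrin receptor brings it into cells. Inside the cell ferritin stores iron, ferroportin releases it, and ferroxidases oxidise the released iron so that transferrin can bind it. Iron regulatory proteins set the output of several of these messages by binding a short RNA stem-loop, which blocks translation when it lies in the 5′ untranslated region (UTR) and protects the message when it lies in the 3′ UTR.

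The stem-loops are shown because they divide the 10 genes into those that carry this element and those in which it was not found. GENCODE M21 transcripts of the mm10 assembly were searched on the transcript strand for C, any 5 bases, CAGTGN, and any 5 bases that pair with the first 5, G with T pairs allowed. The 17-base element was found in Fth1, Ftl1, Slc40a1 and, 4 times, in Tfrc. Each line gives the element with 6 bases on either side, 5′ to 3′, with the CAGTGN loop in capitals. The coordinates are those of the 17 bases.
Fth1, 5′ UTR, chr19:9982738-9982754, plus strand: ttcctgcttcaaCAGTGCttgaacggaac
Ftl1, 5′ UTR, chr7:45459785-45459801, minus strand: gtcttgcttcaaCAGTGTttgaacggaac
Slc40a1, 5′ UTR, chr1:45925471-45925487, minus strand: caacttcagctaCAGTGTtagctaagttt
Tfrc, 3′ UTR, chr16:32631225-32631241, plus strand: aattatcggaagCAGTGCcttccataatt
Tfrc, 3′ UTR, chr16:32631604-32631620, plus strand: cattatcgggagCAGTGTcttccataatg
Tfrc, 3′ UTR, chr16:32631669-32631685, plus strand: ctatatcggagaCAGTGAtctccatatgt
Tfrc, 3′ UTR, chr16:32631716-32631732, plus strand: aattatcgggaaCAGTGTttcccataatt

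Among 21825 protein-coding genes, 0.142% held such a match in a 5′ UTR and 0.591% in a 3′ UTR. The Fth1 and Ftl1 elements lay 115 and 153 bases before the start of the coding sequence, and that of Slc40a1 lay 207 bases before it. The 4 Tfrc elements lay 891 to 1382 bases past the end of the coding sequence. In Trf, Cp, Heph, Slc11a2, Hmox1 and Ireb2 these letters were absent from every annotated coding transcript, which says nothing about looser forms of the element. The element was in 4 of 5 coding transcripts of Fth1, 1 of 2 of Ftl1, 1 of 4 of Slc40a1 and 1 of 3 of Tfrc.

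**Figure D1:**
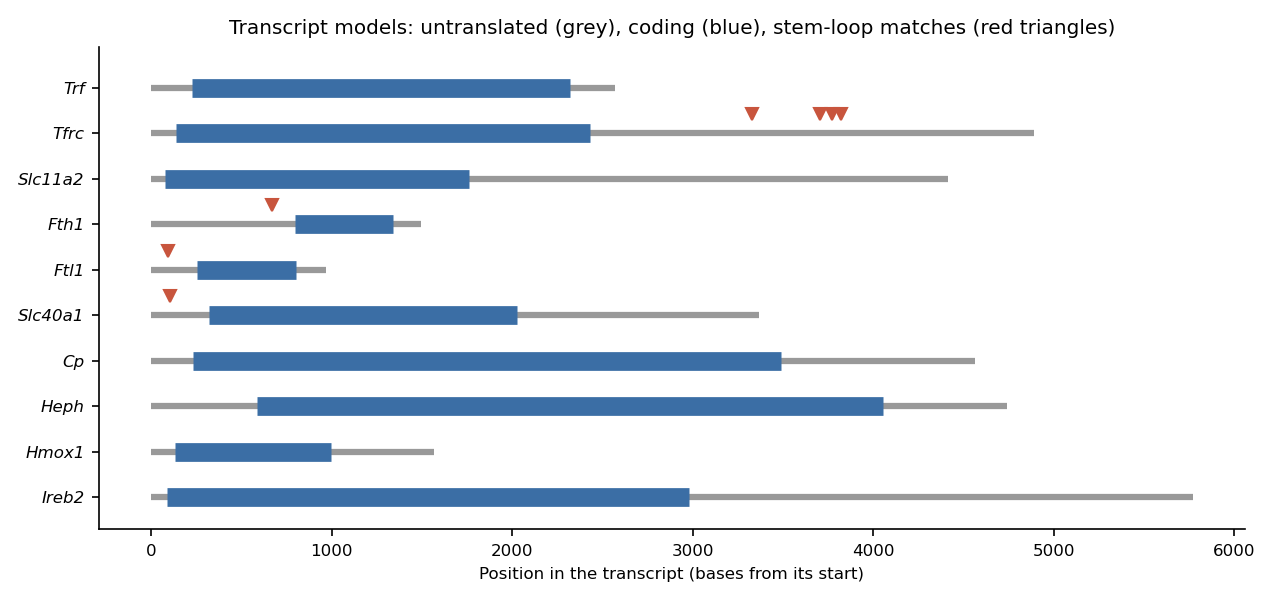
Annotated transcript of each of the 10 genes, drawn to scale in bases from its start, with untranslated parts in grey, coding sequence in blue and stem-loop matches as red triangles. Fth1, Ftl1 and Slc40a1 have 1 match before the coding sequence, Tfrc has 4 after it, and the other 6 transcripts have none.

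Each library held between 1636725 and 2884983 gene counts, and 3 counts, the smallest level taken as detectable, corresponded to 1.04 to 1.83 CPM, the count relative to the sum of gene counts in that library. The targeted gene Ttc8 was 18.5 ± 2.95 CPM in Bbs8+/+ against 4.96 ± 3.26 CPM in Bbs8-/- (SD, n = 4 each; edgeR FDR 2.74e-06). Bbs8-/- replicate 1 stood apart at 9.70 CPM, against 2.29 to 4.20 CPM in the other 3, and without it the log2 fold change of Ttc8 went from -1.95 to -2.44. All 12 RPE marker genes reached 1 CPM in at least 4 libraries, with a summed level of 17983 to 19771 CPM over the 8 libraries. Best1 had 0 to 10 counts and was under the floor of 3 counts in several libraries. No pair of libraries held identical values. Every library held Xist, which is transcribed from the inactive X chromosome of females, at 570 to 746 CPM, together with transcripts of 4 Y-linked genes at a summed 59.0 to 120 CPM. A single animal of either sex does not give both at such levels. It is therefore not shown that a library is the RNA of 1 mouse, or that the 4 libraries of a genotype come from different mice. The errors and FDR values below measure the spread between these libraries, which may not be the spread between mice. All gene levels above and below are CPM after TMM scaling, while the floor of 3 counts was not scaled. Because the method counts 1 tag per transcript, they were not divided by gene length when genes were compared.

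All 10 genes passed the filter of 1 CPM in at least 4 libraries. In Bbs8+/+ eyecups Trf ranked 52nd of 13813 tested genes by mean level, with 932 ± 22.3 CPM (SD, n = 4). Fth1 (338 ± 31.9 CPM) and Ftl1 (269 ± 30.6 CPM) followed, and their ranges overlapped. Ireb2, Cp and Heph had mean levels of 65.1, 47.2 and 41.3 CPM, and Cp overlapped both of the others. Slc11a2, Tfrc and Slc40a1 had mean levels of 23.0, 16.4 and 14.3 CPM, and Tfrc overlapped both of the others. Hmox1 was the lowest with 5.95 ± 3.34 CPM. The ranges of Trf and Fth1, Ftl1 and Ireb2, Heph and Slc11a2, and Slc40a1 and Hmox1 did not overlap. By these counts the carrier was the most abundant message of the set and its receptor among the least abundant. Reads outside annotated genes, 42.1% to 44.4% of uniquely aligned reads per library, were not counted, so this order holds for counted reads only. Trf overlaps the coding gene Gm20425 on the same strand (0 counts), and Best1 lies 75 bases from Fth1 on the opposite strand. How far this alters their levels was not tested.

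Of the 10 genes, 2 were past FDR 0.05 in the direction of higher levels in Bbs8-/- (Trf and Heph), 0 were past it in the direction of lower levels, and 8 were not past it. Over all tested genes 2.24% were called, 1.10% higher and 1.14% lower. At an unadjusted p under 0.05 there were 4 of the 10, against 13.0% of all genes, and DESeq2 also placed 0 in the lower direction. Trf and Heph were higher, and Tfrc lower, in every Bbs8-/- library than in any Bbs8+/+ library. Such separation was seen in 7.38% of all tested genes, 3.62% in the higher and 3.76% in the lower direction. As this contrast guided the choice of the set, nothing is read from these shares. The median log2 fold change of the 10 was 0.03, beside -0.0041 for all tested genes.

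**Figure D2:**
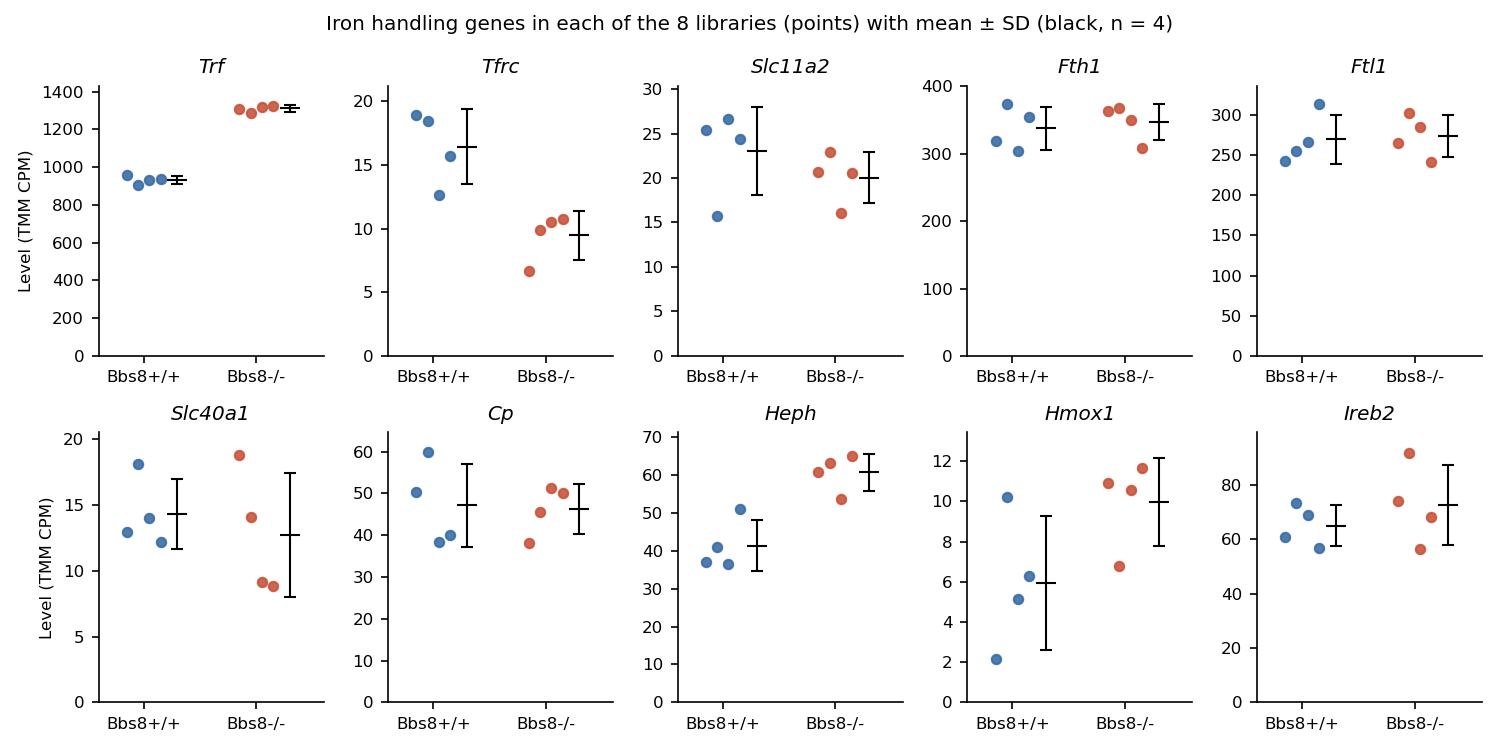
TMM-scaled CPM of the 10 genes (vertical axes, each from 0) in each Bbs8+/+ (blue) and Bbs8-/- (red) library, with mean ± SD beside the points (n = 4). Trf and Heph lie higher and Tfrc lower in all 4 Bbs8-/- libraries, and the other 7 genes overlap.

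Transferrin, the secreted iron carrier, was up-regulated in Bbs8-/- eyecups. Trf (ENSMUSG00000032554, chr9:103204001-103230444, mm10) was 957, 904, 930 and 939 CPM in Bbs8+/+ replicates 1 to 4 and 1311, 1288, 1319 and 1327 CPM in Bbs8-/- replicates 1 to 4. All 4 Bbs8-/- values lay above all 4 Bbs8+/+ values. This was a rise of 40.7%, or 0.49 on the log2 scale with a standard error (SE) of 0.0477 (edgeR FDR 1.09e-15). Between 1991 and 2877 reads per library stood behind these levels. The coefficient of variation was 2.39% in Bbs8+/+ and 1.29% in Bbs8-/-, where counting alone would give 2.09% and 1.97%. The spread between libraries of one genotype was therefore close to counting noise. Whether that spread includes differences between mice is not shown. In bulk tissue of this kind, a change in the number of cells of a type and a change in RNA per cell cannot be told apart.

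Levels of cell type markers, several of which also differed between the genotypes in one or the other direction, are given beside Trf as a description. The summed RPE markers were 17983 to 19084 CPM in Bbs8+/+ against 19398 to 19771 CPM in Bbs8-/-, a log2 ratio of 0.07. Most of this sum was Ttr, which was 10937 ± 513 CPM in Bbs8+/+ against 11657 ± 61.6 CPM in Bbs8-/- (SD, n = 4 each). Without Ttr the sums were 7673 ± 104 and 7901 ± 121 CPM, a log2 ratio of 0.04, and the genotypes touched. Of the 12 RPE markers Otx2 was past FDR 0.05 upward (log2 fold change 0.48) and Mitf downward (-0.36).

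Markers of myelinating glia, which also make transferrin, had summed levels of 415 to 473 CPM in Bbs8+/+ against 311 to 369 CPM in Bbs8-/-. All 9 of the tested glial markers had fold changes below 0, 4 of them past FDR 0.05, and Mog was at 0 in 7 of the 8 libraries. The glial sum was lower in all 4 Bbs8-/- libraries. Summed lens markers were 57.4 to 75.4 CPM in Bbs8+/+ against 406 to 452 CPM in Bbs8-/-, with all 12 above 0 and 7 past FDR 0.05. The part of glial or lens cells in the level of Trf was not tested.

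Of the other lists, the melanocyte, photoreceptor and fibroblast sums were lower and the macrophage and skeletal muscle sums higher in all 4 Bbs8-/- libraries, with log2 ratios of -0.26, -0.25, -0.36, 0.21 and 0.12. The sums for endothelium (log2 ratio 0.01) and for Müller glia and astrocytes (0.03) overlapped. In the latter list Gfap, an intermediate filament of astrocytes and reactive Müller glia, rose from 2.62 ± 1.05 to 14.4 ± 2.04 CPM (edgeR FDR 1.01e-06), and Dkk3 was down-regulated with a log2 fold change of -0.36.

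**Figure D3:**
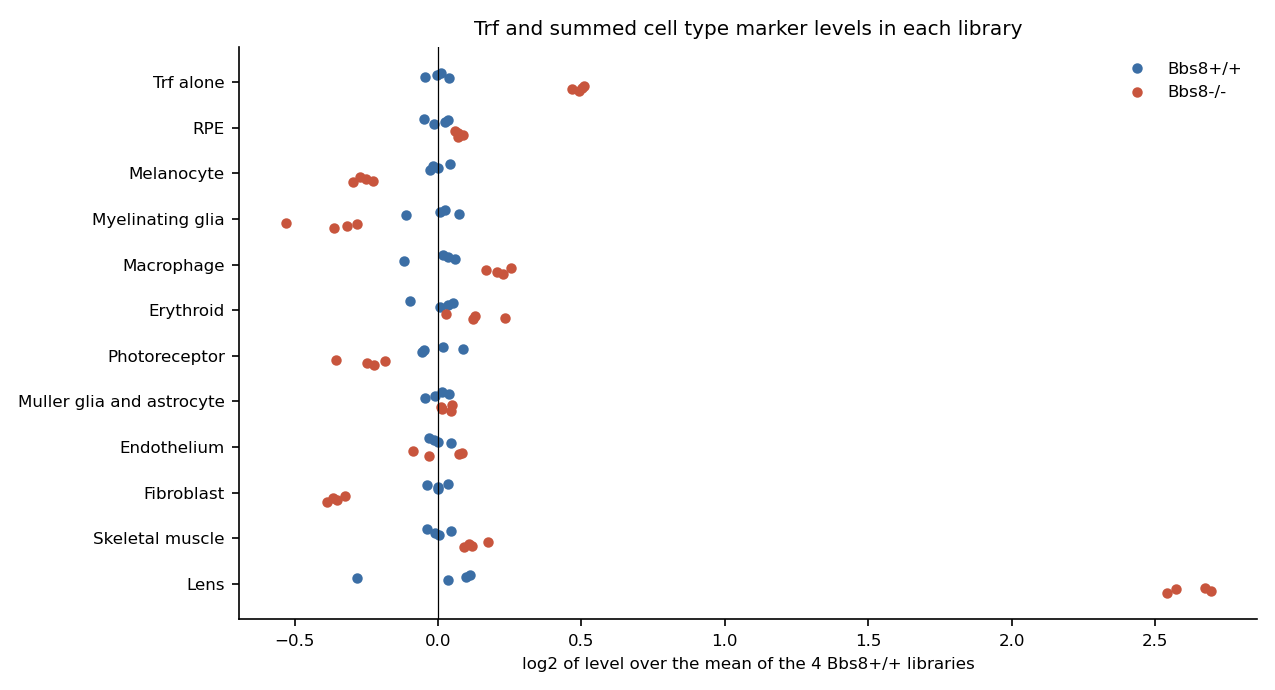
Trf and the summed CPM of 11 cell type marker lists in each library, as log2 of the level over the mean of the 4 Bbs8+/+ libraries (horizontal axis), with Bbs8+/+ in blue and Bbs8-/- in red. Trf lies near 0.5 in Bbs8-/-, the RPE sum just above 0, the myelinating glia sum below 0 and the lens sum above 2.5.

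Across the 8 libraries the 5 genes whose log2 level followed Trf most closely, among 3338 tested genes with a mean of at least 50 CPM, were Otx2, Rpl14, Glo1, Rdx and Rbm39. Their Pearson coefficients were 0.987, 0.979, 0.979, 0.978 and 0.975. The libraries share the difference between genotypes, so these coefficients describe the ranking only. Otx2, a transcription factor of the RPE, was 554 ± 11.6 CPM in Bbs8+/+ against 771 ± 21.9 CPM in Bbs8-/- (SD, n = 4 each), with a log2 fold change of 0.48. Rbm39 stood among the 5 with a log2 fold change of 0.11 that was not past the threshold (edgeR FDR 0.422).

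Tfrc, the transferrin receptor, had lower values than the controls in every Bbs8-/- library but was not past the threshold. Tfrc (ENSMUSG00000022797, chr16:32608920-32632794) was 19.0, 18.5, 12.6 and 15.7 CPM in Bbs8+/+ against 6.67, 9.92, 10.5 and 10.7 CPM in Bbs8-/-. The highest Bbs8-/- library lay below the lowest Bbs8+/+ library, by less than 2 CPM. The difference on the log2 scale was -0.78 with SE 0.273 and a 95% interval of -1.32 to -0.24 (edgeR FDR 0.129, and 0.0859 to 0.338 over 16 alternatives). Only 11 to 47 reads per library stood behind Tfrc, and the coefficients of variation, 17.8% in Bbs8+/+ and 20.04% in Bbs8-/-, were near the 15.7% and 22.9% of counting alone. As Trf was higher and Tfrc lower in every Bbs8-/- library, their ratio had to separate the genotypes. The ratio of Trf to Tfrc within a library was 48.9 to 73.7 in Bbs8+/+ against 124 to 197 in Bbs8-/-, with the highest value in Bbs8-/- replicate 1. Without that library the log2 fold change was -0.65 for Tfrc, 0.50 for Trf and 0.55 for Heph.

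Slc11a2 encodes the transporter that moves ferrous iron across membranes after transferrin has released it. It was 25.4, 15.7, 26.6 and 24.4 CPM in Bbs8+/+ against 20.6, 23.0, 16.0 and 20.5 CPM in Bbs8-/-. The genotypes overlapped, and each held 1 library near 16 CPM. This gave a log2 fold change of -0.20 with a 95% interval of -0.62 to 0.22 (edgeR FDR 0.775).

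Ferritin messages overlapped between the genotypes. Fth1, the heavy chain with ferroxidase activity, was 320, 374, 304 and 354 CPM in Bbs8+/+ against 363, 368, 350 and 309 CPM in Bbs8-/-. Ftl1, the light chain, was 243, 256, 266 and 313 CPM in Bbs8+/+ against 264, 302, 285 and 242 CPM in Bbs8-/-. Both the highest and the lowest Fth1 value were in Bbs8+/+, and the 2 genotypes had nearly the same lowest Ftl1 value. The log2 fold changes were 0.04 for Fth1 (95% interval -0.10 to 0.17, edgeR FDR 0.892) and 0.02 for Ftl1 (-0.13 to 0.16, FDR 0.954). Between 436 and 1015 reads per library stood behind each chain. The ratio of heavy to light chain was 1.26 ± 0.157 in Bbs8+/+ against 1.27 ± 0.0708 in Bbs8-/- (SD, n = 4 each). Ferritin genes have processed copies elsewhere in the genome, and reads that fit a copy equally well are missing from unique counts. The copy Ftl1-ps1 had at most 1 count in any library.

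**Figure D4:**
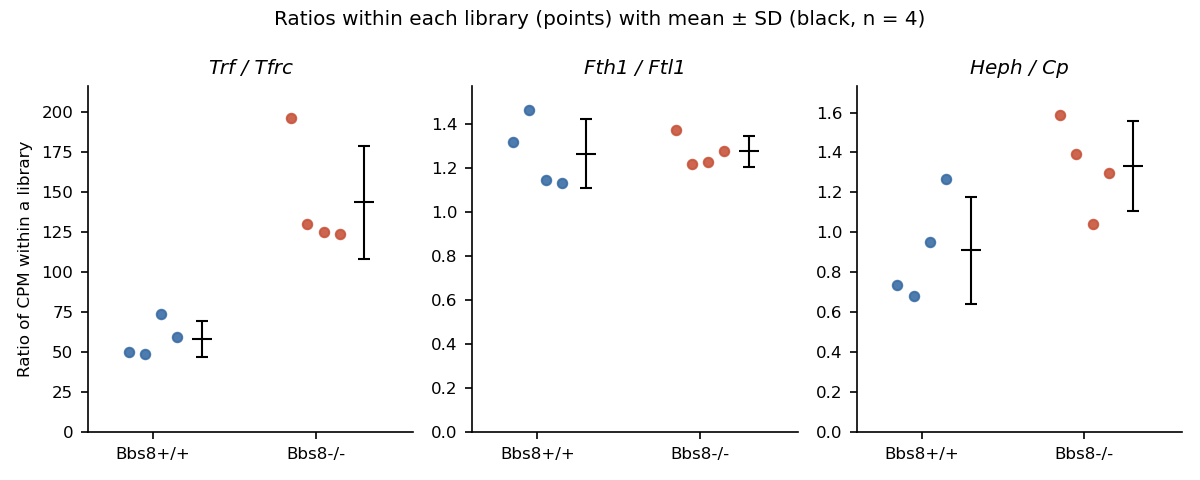
Ratios of TMM-scaled CPM within each library for Trf over Tfrc, Fth1 over Ftl1 and Heph over Cp (vertical axes from 0), with mean ± SD (n = 4). Only the ratio of Trf to Tfrc separates all Bbs8+/+ (blue) from all Bbs8-/- (red) libraries, at 48.9 to 73.7 against 124 to 197. This follows from the separation of each of these genes alone and adds no support.

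The iron exporter ferroportin, Slc40a1, was 12.9, 18.1, 14.01 and 12.2 CPM in Bbs8+/+ against 18.8, 14.1, 9.17 and 8.87 CPM in Bbs8-/-. Bbs8-/- held both the highest and the lowest values. The log2 fold change was -0.19 with a 95% interval of -0.73 to 0.34 (edgeR FDR 0.841), on 19 to 46 reads per library, so a fall as large as the rise of Trf lies within the interval.

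Of the ferroxidases that act beside ferroportin, the membrane-bound hephaestin was up-regulated and ceruloplasmin was not past the threshold. Heph (ENSMUSG00000031209, chrX:96455359-96574485) was 37.1, 40.9, 36.4 and 51.0 CPM in Bbs8+/+ against 60.6, 63.2, 53.7 and 64.9 CPM in Bbs8-/-. Bbs8+/+ replicate 4 and Bbs8-/- replicate 3 lay closest together, without overlap. The difference on the log2 scale was 0.54 with SE 0.142 (edgeR FDR 0.0152). The call was lost without Bbs8+/+ replicate 1 (FDR 0.0635) or 3 (0.0594), without Bbs8-/- replicate 2 (0.0521) or 4 (0.0792), and after thinning all libraries to the smallest total (0.0552), with a log2 fold change of 0.49 to 0.67 over 16 alternatives.

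Heph lies on the X chromosome, and sex-linked transcripts differed between the genotypes. Xist was 640 to 746 CPM in Bbs8+/+ against 570 to 625 CPM in Bbs8-/-, and the summed level of 4 Y-linked genes was 59.0 to 64.9 and 108 to 120 CPM. Among 466 tested X-linked genes other than Heph and Xist, 1 was up-regulated, 3 were down-regulated and the median log2 fold change was 0.0051. Whether the sex-linked difference bears on Heph was not tested.

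Ceruloplasmin, Cp, is the secreted copper ferroxidase. It was 50.4, 59.8, 38.3 and 40.1 CPM in Bbs8+/+ against 38.2, 45.4, 51.4 and 49.96 CPM in Bbs8-/-, and the genotypes overlapped almost fully. This gave a log2 fold change of -0.02 with a 95% interval of -0.31 to 0.27 (edgeR FDR 0.976). Cp overlaps Hps3 on the opposite strand, and as the strand setting of the counting is not stated, reads of the 2 genes may not be separable. The ratio of Heph to Cp was 0.910 ± 0.266 in Bbs8+/+ against 1.33 ± 0.225 in Bbs8-/- (SD, n = 4 each), with overlap between the genotypes.

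Hmox1, the inducible enzyme that opens the heme ring and frees its iron, was 2.15, 10.2, 5.14 and 6.28 CPM in Bbs8+/+ against 10.9, 6.79, 10.5 and 11.7 CPM in Bbs8-/-. Bbs8+/+ replicate 2 lay among the Bbs8-/- values. The log2 fold change was 0.73 with SE 0.359 (edgeR FDR 0.371), on 5 to 26 reads per library. The spread in Bbs8+/+ was 56.1% of the mean, against 25.8% from counting alone. Macrophages are rich in Hmox1, and their summed markers were 453 to 511 CPM in Bbs8+/+ against 551 to 586 CPM in Bbs8-/-, with 9 of 11 markers above 0 and 2 past FDR 0.05. Their part in the level of Hmox1 was not tested. Cd163, the macrophage receptor for hemoglobin bound to haptoglobin, had a log2 fold change of 0.14 (edgeR FDR 0.90).

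Ireb2 encodes an iron regulatory protein that binds the stem-loops shown above. It was 60.7, 73.5, 69.1 and 56.9 CPM in Bbs8+/+ against 74.0, 91.9, 56.4 and 68.2 CPM in Bbs8-/-. The genotypes overlapped, with the lowest and the highest value both in Bbs8-/-. The difference on the log2 scale was 0.15 with a 95% interval of -0.09 to 0.40 (edgeR FDR 0.67). Aco1, the other iron regulatory protein, was 29.2 ± 5.73 CPM in Bbs8+/+ against 23.1 ± 3.09 CPM in Bbs8-/- (SD, n = 4 each), with a log2 fold change of -0.35 (FDR 0.46).

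Grouped by the stem-loop, the 3 genes with a match in the 5′ UTR had log2 fold changes of 0.04, 0.02 and -0.19, and Tfrc, with matches in the 3′ UTR, had -0.78. Alas2, the erythroid form of the first enzyme of heme synthesis, carried the same kind of element in its 5′ UTR at chrX:150547464-150547480. Its level was 48.2 ± 1.94 CPM in Bbs8+/+ against 47.9 ± 4.81 CPM in Bbs8-/- (SD, n = 4 each). Any matches in Ftmt, Fech and Hspa9, which lie on chromosome 18, are not reported here. Both genes past the threshold, Trf and Heph, were among the 6 with no match to this strict form. Looser forms were not searched, so an element in any of the 6, Slc11a2 among them, may have been missed. RNA levels do not show the translation that a 5′ element controls.

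The remaining pathway was covered by 70 partner genes, of which 61 were tested. Of the 61, 1 was up-regulated (Alad), 2 were down-regulated (Flvcr2 and Epas1) and 58 were not past FDR 0.05. These counts compare with 1.10% and 1.14% of all tested genes. Fold changes were above 0 for 25 and below 0 for 36, with a median of -0.08, where 6834 of all 13813 genes were above 0 with a median of -0.0041. Of the partners, 5 of the 61 (8.20%) showed no overlap between genotypes, near the 7.38% of all tested genes.

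Alad, the second enzyme of heme synthesis, was 100.4, 80.2, 82.7 and 86.9 CPM in Bbs8+/+ against 115.8, 134.7, 133.0 and 162.5 CPM in Bbs8-/-. All Bbs8-/- values lay above the Bbs8+/+ values. This gave a log2 fold change of 0.65 with SE 0.101 (edgeR FDR 1.04e-06), and the FDR was at most 0.000411 in 16 alternatives. The other 10 heme synthesis genes were not past the threshold, 4 of them above 0 and 6 below. Red cells are a rich source of these enzymes, and the summed erythroid markers were 5159 to 5726 CPM in Bbs8+/+ against 5635 to 6493 CPM in Bbs8-/-, with overlap and with 4 of 7 markers above 0 and 2 past FDR 0.05 upward. Alas2, itself on the erythroid list, had a log2 fold change of -0.01. The part of red cells in the level of Alad was not tested.

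Flvcr2, a membrane transporter described for heme and for choline, was 87.0, 96.7, 78.0 and 119 CPM in Bbs8+/+ against 71.0, 75.2, 76.1 and 66.8 CPM in Bbs8-/-. The groups were separated by less than 2 CPM. The log2 fold change was -0.41 with SE 0.116 (edgeR FDR 0.0324), and the call was lost in 9 of 16 alternatives, over which the log2 fold change was -0.49 to -0.27. Without Bbs8+/+ replicate 2 or 4 the FDR was 0.0883 or 0.334, and without Bbs8-/- replicate 1, 2, 3 or 4 it was 0.0961, 0.0559, 0.0537 or 0.137. Flvcr2 lies 13.1 Mb from the targeted gene Ttc8 on chromosome 12. Epas1, a hypoxia-inducible factor that also responds to iron, was 202, 236, 212 and 214 CPM in Bbs8+/+ against 178, 192, 194 and 152 CPM in Bbs8-/-. All Bbs8-/- values lay below the Bbs8+/+ values. The difference on the log2 scale was -0.27 with SE 0.0806 (edgeR FDR 0.0441), and the call was lost in 8 of 16 alternatives, over which the log2 fold change was -0.31 to -0.20. Without Bbs8+/+ replicate 2, 3 or 4 the FDR was 0.244, 0.0514 or 0.0738, and without Bbs8-/- replicate 1 or 4 it was 0.115 or 0.313.

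Among 15 tested uptake and release partners 6 had fold changes above 0 and 9 below, and 0 were past the threshold by edgeR or DESeq2, with 1 at an unadjusted p under 0.05. That gene was Slc39a8, a zinc, manganese and iron importer, which had 3 to 23 reads per library, a mean of 6.15 CPM in Bbs8+/+ against 2.50 CPM in Bbs8-/-, and a log2 fold change of -1.26 (edgeR FDR 0.22). Lrp1, the receptor for heme bound to hemopexin, was 301 ± 12.7 CPM in Bbs8+/+ against 275 ± 30.6 CPM in Bbs8-/- (SD, n = 4 each), with a log2 fold change of -0.13 (FDR 0.435). Of the metal reductases that act with the transferrin receptor, Steap2, Steap3 and Steap4 had log2 fold changes of -0.36, -0.09 and -0.11, and Steap1, on at most 5 reads per library, had 0.59. Of the members above 0, the iron importer Slc39a14 had 0.22, and Hp and Hpx, which bind free hemoglobin and heme, had 1.20 and 0.83 on at most 8 and 7 reads per library.

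The 3 tested chaperone and ferritin turnover genes were all below 0. Pcbp2, a chaperone that hands iron to ferritin, was 203 ± 11.9 CPM in Bbs8+/+ against 180 ± 10.0 CPM in Bbs8-/-, a log2 fold change of -0.17 (edgeR FDR 0.354). Ncoa4, the receptor for ferritin breakdown, had 7 to 21 reads per library and a log2 fold change of -0.46 (FDR 0.74). Fbxl5, the ligase subunit that removes iron regulatory proteins when iron is plentiful, had a log2 fold change of -0.13 (FDR 0.78).

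Among 9 tested heme transport and breakdown genes Flvcr2 alone was past the threshold. The constitutive heme oxygenase Hmox2 had a log2 fold change of 0.12, and the biliverdin reductases Blvra and Blvrb had 0.21 and 0.01. Among 14 tested genes of mitochondrial iron and iron-sulfur clusters 0 were past the threshold by edgeR or DESeq2, with 1 at an unadjusted p under 0.05. That gene was Nfs1, the cysteine desulfurase that supplies sulfur to the clusters, with 10.9 ± 4.03 CPM in Bbs8+/+ against 5.77 ± 2.59 CPM in Bbs8-/- (SD, n = 4 each) and a log2 fold change of -0.95 (FDR 0.17). Cpox, an enzyme late in heme synthesis, had a log2 fold change of -0.57 (FDR 0.354) and overlapped between the genotypes.

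The 9 partner genes that were not tested had at most 6 counts in any library. Tfr2, the second transferrin receptor, had 1, 0, 0 and 0 reads in Bbs8+/+ and 4, 6, 3 and 2 reads in Bbs8-/-. All 4 Bbs8+/+ libraries and Bbs8-/- replicate 4 were under the floor of 3 counts, so no difference is read from them. The hepcidin gene Hamp had at most 1 read in any library, and Hamp2 and the mitochondrial ferritin Ftmt had 0 in all 8. A count of 0 allows a level of up to 1.04 to 1.83 CPM.

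**Figure D5:**
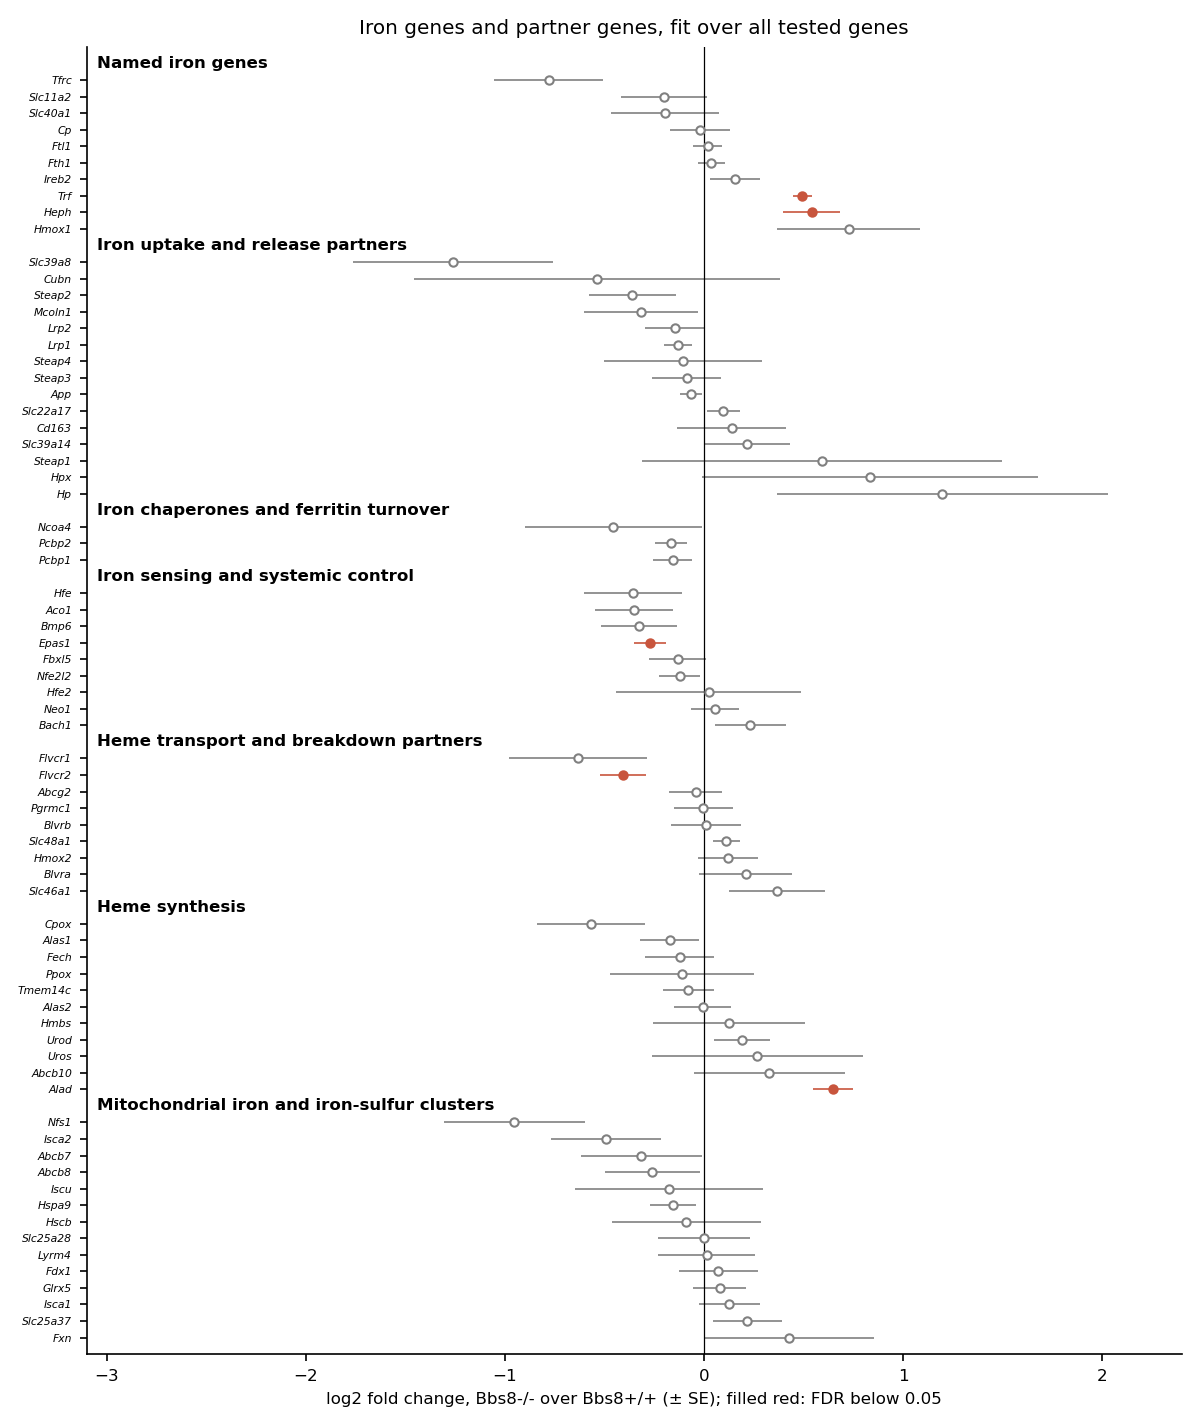
Log2 fold change (Bbs8-/- over Bbs8+/+, horizontal axis) ± SE of the 10 iron handling genes and the 61 tested partner genes by role, with genes past edgeR FDR 0.05 filled in red. Trf, Heph and Alad are filled above 0, Flvcr2 and Epas1 below 0, and the other 66 genes are open.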

How the data were processed

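The authors deposited 1 file per library of unnormalized counts, each the number of reads aligned to a single place and assigned to a gene. The authors trimmed reads with BBDuk (BBMap 37.31), aligned them with STAR 2.6.0a to mm10 with Ensembl release 93 gene models, and counted with htseq-count. The strand setting is not given in the sources used here, no molecular identifiers were named, and the study's filter on multi-mapped reads was not applied. Floors and counting errors therefore cover counting error only, while intervals of fold changes also hold the spread between libraries. The study's methods name each animal a biological replicate.

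The fit kept genes that reached 1 CPM in 4 or more libraries and used edgeR 4.0.16 (R 4.3.3), quasi-likelihood, after TMM scaling, with a genotype term alone, two-sided, and Benjamini-Hochberg adjustment over all 13813 genes at FDR 0.05. The procedure was tested on simulated data. Symbols came from GENCODE M21, which held 31011 of the 31053 identifiers. Summed markers are given by their ranges. The exact permutation tests planned for them are not printed, since the lists were chosen with results known.

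The members and lists were chosen with earlier results of these data known. Named were all 10 members, the 8 partner genes with the smallest p, ferritin pseudogenes with counts, the 5 genes most like Trf, and Ttc8. Other partners, markers and sex-linked genes were named after their values were seen. Alternatives were RLE or total-count scaling, no filter or filterByExpr, DESeq2 1.42.0, a replicate block, thinning, omission of Gm42418 and mitochondrial genes, and omission of each library. The RPE sum without Ttr was added after seeing the data. Reads outside annotated genes were 42.1% to 43.4% of uniquely aligned reads (gene, ambiguous and outside) in Bbs8+/+ and 44.1% to 44.4% in Bbs8-/-.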

Additional observations from a re-analysis of the deposited data

Results flagged for a closer look

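Cpox in Bbs8-/- replicate 2 was 13.1 CPM, far above the 9.70 to 10.1 CPM of the other 3 Bbs8-/- libraries relative to the range of the group. This was 1 of 36 groups of 4 libraries examined, where chance gives about 1.8.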

How the results depend on the processing

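Trf kept its direction and its call in all 16 alternatives, with log2 fold changes of 0.48 to 0.52 and an FDR of at most 2.10e-12. The number of the 10 genes called higher was 1 after thinning and 1 to 2 when 1 library was left out, and the gene lost was Heph, without Bbs8+/+ replicate 1 or 3 or Bbs8-/- replicate 2 or 4. Partner genes called lower numbered 0 with thinning and 0 with DESeq2, and 0 to 2 when 1 library was left out (0 without Bbs8+/+ replicate 2 or 4 or Bbs8-/- replicate 1 or 4, and 1 without Bbs8+/+ replicate 3 or Bbs8-/- replicate 2 or 3). Over all genes, leaving out 1 library gave 114 to 172 higher and 101 to 150 lower, the 101 without Bbs8-/- replicate 1. Values near 0 changed sign. Fth1 ranged from -0.0093 to 0.092, Ftl1 from -0.029 to 0.10 and Cp from -0.10 to 0.12 when 1 library was left out, and Cp was 0.063 after thinning. Genes not past the threshold also moved by over 1.5 times when 1 library was left out: Slc40a1 was -0.42 without Bbs8-/- replicate 1 and -0.05 without replicate 4, Slc11a2 -0.35 without Bbs8+/+ replicate 2 and -0.10 without Bbs8-/- replicate 3 (-0.04 after thinning), Hmox1 0.46 without Bbs8+/+ replicate 1 and 1.12 without replicate 2, Ireb2 0.02 and 0.27 without Bbs8-/- replicates 2 and 3, Cpox -0.30 without Bbs8+/+ replicate 4, and Lrp1 ranged from -0.19 to -0.06. The cause was not tested. The 11 marker sums moved by less than the spread between libraries in their 12 alternatives. Counting alone gives a coefficient of variation of 15.7% to 22.9% for Tfrc, which bounds the precision at this depth. The RPE sum without Ttr, chosen after seeing the data, also moved by less than that spread.

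A fit with the replicate number as a block called 134 genes higher and 129 lower. In that paired fit Heph was 0.55 (FDR 0.0174), and 0 partner genes were lower, Flvcr2 having an FDR of 0.0626 and Epas1 of 0.0606. The block changed no other call among the 10 members, the 8 named partners and Ttc8. It was not tabulated for single marker or X-linked genes, and over all genes it kept 261 of the 309 calls. Deviations of same-numbered libraries correlated by -0.056 to 0.02 over 6626 genes, and the numbers were therefore not treated as pairs.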
